A study of Mus musculus with 4 samples.

Results

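The circadian clock genes Per1, Per2, Per3, Cry1, Cry2, Arntl, Clock, Npas2, Dbp and Tef were examined in mouse mammary epithelial cells with normal and depleted levels of the glucocorticoid receptor (GR). Members were taken by gene name: every non-control probe whose name on the array is 1 of these 10 symbols. This gave 19 probes of 41174, for 10 of 28146 gene names. The question was whether these genes differ between the lines when no glucocorticoid is present. EV-50 is a stable line of EPH-4, an untransformed mouse mammary epithelial cell line, with an empty vector, and shGR-19 is a stable EPH-4 line with an shRNA vector against GR. Both were grown without serum or glucocorticoid and in 2 µg/ml puromycin, to which a cotransfected plasmid gives resistance. Each line is 1 selected clone, so that the effect of the shRNA and other differences between clones cannot be told apart. RNA of each line (300 ng per labelling) was hybridized to 2 Agilent Whole Mouse Genome arrays in 1 colour. The sources used here do not say whether the duplicates came from separate cultures, so p-values measure only the spread between these arrays, which may be technical.

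The clock runs in most cell types as a feedback loop of transcription. Arntl (also called BMAL1) pairs with Clock or its relative Npas2 and binds E-boxes in the genes of the Per and Cry repressors, whose proteins return to block the pair. A second loop of nuclear receptors sets Arntl itself, with the Rev-erb receptors Nr1d1 and Nr1d2 repressing and the ROR receptors activating it, and the PAR bZIP factors Dbp, Tef and Hlf, opposed by Nfil3, carry the rhythm to D-boxes of output genes. Glucocorticoids are a known time cue for clocks outside the brain, and hormone-bound GR induces Per1.

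Values came from 2 sources, the scanner signal of each array (log2 of the background-subtracted signal minus the array's 75th percentile) and a deposited table of log2 values in which each probe is centred on its median over the 4 columns. They did not give the same difference between the lines. Over 15163 probes with a signal above 100 throughout, the log2 difference between the lines had an SD of 0.0968 for the pair of scanner arrays with replicate number 1 and of 0.447 for the pair with number 2. In the table these SDs were 0.445 and 0.447. Nr3c1, the gene of GR, had scanner values of 1.81 and 1.92 for EV-50 (replicates 1 and 2, here and throughout) and of 1.46 and −0.034 for shGR-19, by the brightest of 4 probes, and its table difference was −1.94. Of 8 epithelial markers, 7 or 8 were well above background on every array, and 3 of 6 immune markers were, while Ptprc, Itgam and Emr1 were so on none. Of 6 fibroblast markers, the second shGR-19 array had 5 well above background and the others 1 to 3, and their summed log2 level was 5.10 there against 0.70 to 1.64. The part of this difference in the clock values was not tested. The sources used here do not settle whether the scanner files labelled replicate 1 belong to the samples they are labelled with, so each scanner mean, SE and p given for a line carries that doubt. Scanner and table values are given side by side for the measured members and for the other clock genes called. Kept were 24443 probes whose signal was well above background in both replicates of EV-50, of shGR-19 or of each, of which 24441 could be tested in the scanner files.

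Of the 19 clock probes, 14 were kept, for 9 of the 10 genes. In the value table, Arntl increased 2.11-fold and Tef decreased 1.73-fold in shGR-19 relative to EV-50, at a Benjamini-Hochberg adjusted p below 0.01 in limma. These were 2 of the 14 kept probes (14.3%), against 11.6% of all kept probes (5.53% higher and 6.04% lower). At an adjusted p below 0.05, 8 of 14 passed (57.1%), 3 higher and 5 lower, against 36.5% of all kept probes (18.3% higher and 18.2% lower). Arntl alone also differed by more than 2-fold (4.26% of all kept probes did so at that p). In the scanner files limma called 0 of 14, against 0.0% of all kept probes, and 0 of 14 had an unadjusted p below 0.05, as 0.855% of all did. The median difference over the 14 probes was −0.20 in the table and −0.045 in the scanner files, beside 0.0087 and 0.018 over all kept probes. The remaining member, Npas2, had 1 probe and was not well above background on any array.

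**Figure D1:**
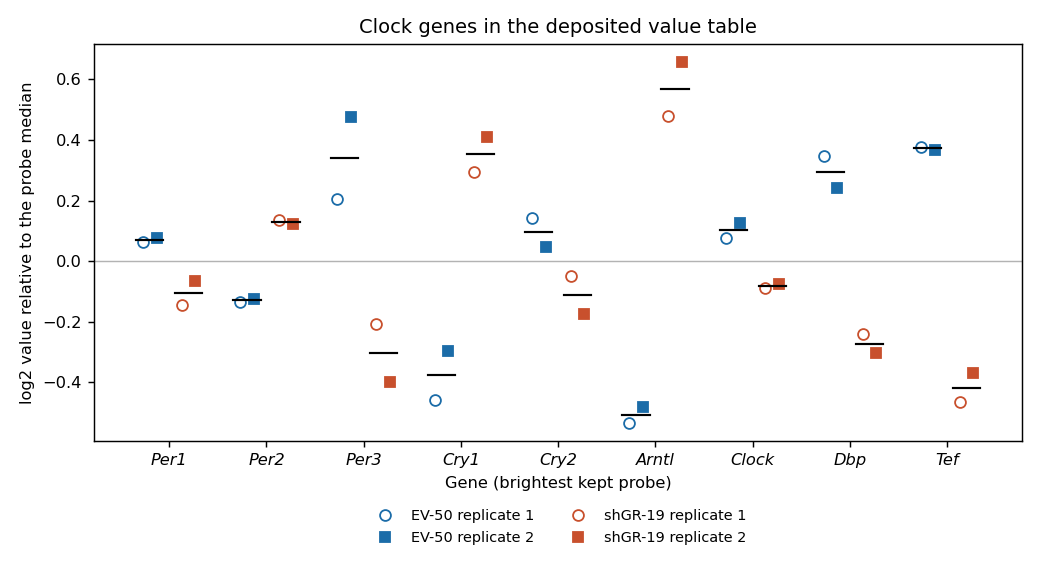
Deposited log2 values of the 9 measured clock genes, each relative to the probe's median over 4 columns, by line and replicate, with 1 probe per gene (the brightest kept) and bars at the mean of each line. The lines do not overlap for any of the 9 genes on these probes, as for 71.9% of all kept probes. The gap is widest for Arntl, at a difference of 1.08.

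The calls in the table depended on 1 setting or another. With any 1 of the 4 columns left out, 0 of the 14 probes were called by limma (0% of all kept probes were; 8 or 9 of the 14 had an unadjusted p below 0.05, as 37.1% to 40.2% of all did, beside 11 with all columns, where 48.4% of all kept probes did). When a signal well above background was required on every array 5 of 13 were called (38.5%, against 23.0% of all probes tested there), adding Cry1, Dbp and a second Tef probe to the first 2. The groups did not overlap for 13 of the 14 probes in the table, where this held for 71.9% of all kept probes, and for 4 of 14 in the scanner files, where it held for 17.9%.

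The upstream sequences of the 4 members with the largest differences in the table (Arntl, Tef, Cry1 and Per3) are shown because the loops described above act through short DNA motifs. Each is the 250 bases before the annotated start of transcription in the RefSeq promoter table for GRCm38.p6, written 5′ to 3′ on the strand of the gene, with motif letters in capitals. In Arntl the capitals are a loose form of the ROR and Rev-erb motif (TNGGTCA, called RORE here). Its second letter may be any base, and is T or C in the matches marked. In Per3 the capitals are the D-box (TTANGTAA) and the RORE on the other strand. In Cry1 they are an E-box (CACGTG) and the variant CACGTT, which stands on the other strand, and in Tef an E-box.
Arntl promoter, chr7:113207215-113207464, plus strand: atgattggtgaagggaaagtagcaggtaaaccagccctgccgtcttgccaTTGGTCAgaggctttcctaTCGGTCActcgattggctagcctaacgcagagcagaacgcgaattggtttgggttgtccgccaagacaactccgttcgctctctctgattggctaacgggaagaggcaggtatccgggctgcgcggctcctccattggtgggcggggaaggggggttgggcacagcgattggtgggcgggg
Tef promoter, chr15:81802423-81802672, plus strand: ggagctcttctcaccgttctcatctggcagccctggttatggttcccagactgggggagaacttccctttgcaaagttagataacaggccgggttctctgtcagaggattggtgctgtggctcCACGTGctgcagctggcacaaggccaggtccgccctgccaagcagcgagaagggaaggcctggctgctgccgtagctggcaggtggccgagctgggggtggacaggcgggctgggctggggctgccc
Cry1 promoter, chr10:85185055-85185304, minus strand: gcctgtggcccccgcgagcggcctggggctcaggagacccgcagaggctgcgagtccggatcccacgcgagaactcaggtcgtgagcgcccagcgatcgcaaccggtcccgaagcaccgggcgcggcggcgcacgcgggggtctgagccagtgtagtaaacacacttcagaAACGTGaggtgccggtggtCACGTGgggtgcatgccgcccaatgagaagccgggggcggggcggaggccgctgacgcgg
Per3 promoter, chr4:151044666-151044915, minus strand: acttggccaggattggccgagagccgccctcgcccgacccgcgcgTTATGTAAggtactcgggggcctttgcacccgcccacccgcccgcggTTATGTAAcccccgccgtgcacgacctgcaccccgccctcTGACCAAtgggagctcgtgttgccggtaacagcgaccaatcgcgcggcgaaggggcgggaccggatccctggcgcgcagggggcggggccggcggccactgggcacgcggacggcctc

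The RefSeq table held a window for 9 of the 10 members. Both strands were searched, and a motif counted wherever its letters stood. Arntl held 2 RORE matches, at −200 and −181 from its first annotated start, and the window of its second start covers the same matches at −246 and −227. Of all 32851 windows, 9.19% held a RORE. Per3 held 2 D-boxes, at −205 and −158, where 2.06% of windows held one, and a RORE at −118. Cry1 held an E-box at −60 and CACGTT at −79, found in 6.02% and 3.85% of windows. Tef held an E-box at −127 from its first start. The window of its second start held an E-box at −138 and a RORE at −219, a RORE that the first window lacked. Per1 held an E-box at −166 from 1 of its 2 starts, and Cry2 held CACGTT at −166 and a RORE at −133. The windows of Clock, Npas2 and Dbp held none of these letters. The palindromic glucocorticoid response element (GNACA and TGTNC with 3 bases between them) stood in 0 of the 9 members' windows and in 0.387% of all windows. These are letter matches in short windows, with the RORE in a loose form, and were not tested as binding sites.

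**Figure D2:**
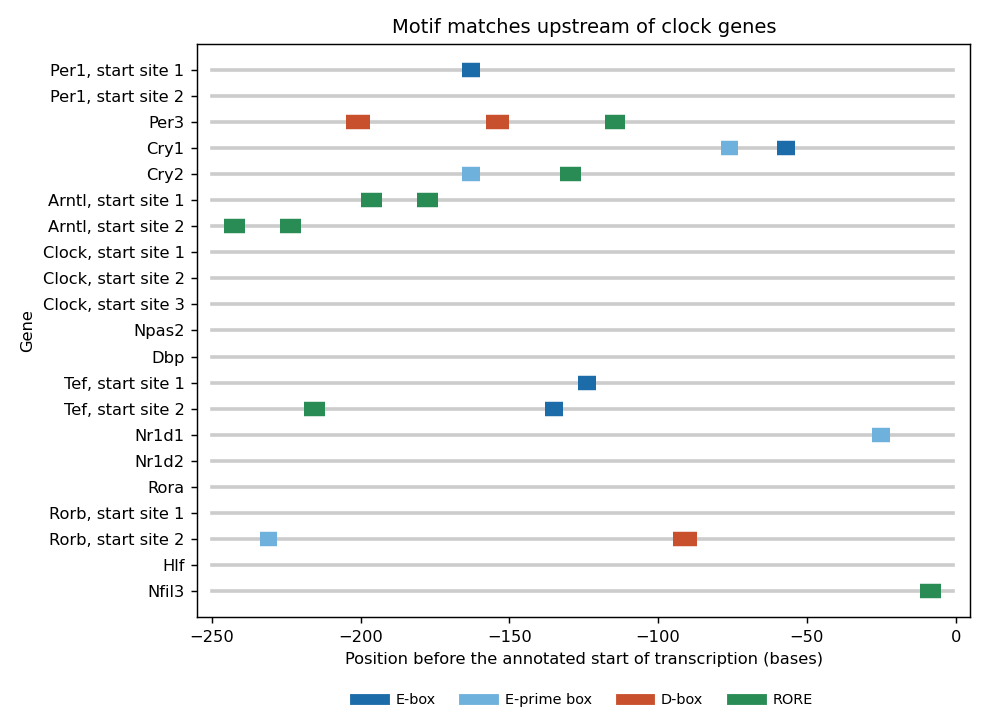
Positions of motif matches in the 250 bases before each annotated start of transcription, on the horizontal axis in bases, for 9 member genes and 6 other clock genes, with 1 line per start site. Matches to the loose form of the RORE lie in Arntl, Per3, Cry2, Tef and Nfil3, and E-boxes in Per1, Cry1 and Tef.

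Among the activators, Arntl, the obligate partner of the complex, was read by 1 probe (A_52_P267651, mm9 chr7:120456978-120457037). Its table values were −0.53 and −0.48 in the EV-50 columns and 0.48 and 0.66 in the shGR-19 columns. The shGR-19 columns were the higher ones, with a difference of 1.08 ± 0.083 (SE, 2 columns per line, limma adjusted p = 0.00638, range over the alternatives 3.56e-05 to 0.0476). On the scanner arrays, Arntl read 0.080 and −0.94 for EV-50 and 0.16 and 0.22 for shGR-19. The lines did not overlap, but 1 array, EV-50 replicate 2, stood below the other 3. The scanner difference was 0.62 ± 0.40 (SE; limma adjusted p = 1.00), made of 0.085 between the arrays labelled replicate 1 and 1.16 between those labelled replicate 2.

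Clock, the DNA-binding partner of Arntl, had 4 probes, of which 3 were kept and 0 were called in either source. The brightest (A_52_P334670) had table values of 0.077 and 0.13 in EV-50 and −0.090 and −0.077 in shGR-19, a difference of −0.19 ± 0.049 (SE; limma adjusted p = 0.0616). It read 1.03 and 0.58 for EV-50 and 0.96 and 0.23 for shGR-19 on the scanner arrays, which overlapped. The kept probes of Clock did not share a direction: the table gave −0.31 for a second probe, A_52_P334677, near the first, and 0.20 for another, A_52_P279391, designed on another transcript and well above background on 3 of 4 arrays. On the scanner arrays A_52_P334677 read −1.18 and −1.58 for EV-50 and −1.34 and −1.92 for shGR-19, which overlapped too. A_52_P279391 was also higher on both shGR-19 scanner arrays (−4.88 and −4.88) than on the EV-50 arrays (−5.28 and −5.38). The remaining probe was well above background on 1 array. Npas2, which can take the place of Clock, gave scanner values of −5.84 and −5.94 for EV-50 and −6.03 and −6.13 for shGR-19, with no value well above background.

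Among the repressors, the Cry genes, whose proteins carry most of the block on the activators, had table differences of opposite sign, and neither was called. Cry1 (A_51_P302204, mm9 chr10:84606495-84606554) had table values of −0.46 and −0.29 in EV-50 and 0.29 and 0.41 in shGR-19. The difference was 0.73 ± 0.087 (SE; limma adjusted p = 0.0128), with no overlap, and it passed the threshold with the stricter filter on signal (adjusted p = 0.00537) or with an intensity trend and a robust prior (adjusted p = 0.00183). On the scanner arrays Cry1 read −3.02 and −3.10 for EV-50 and −2.98 and −1.96 for shGR-19. Here the second shGR-19 array stood above the other 3, and the differences were 0.043 between the arrays labelled replicate 1 and 1.14 between those labelled replicate 2. A second Cry1 probe was well above background on no array. Cry2 (A_52_P248378) had a table difference of −0.21 ± 0.075 (SE; limma adjusted p = 0.115). Its scanner values, −1.85 and −0.76 for EV-50 and −2.07 and −0.80 for shGR-19, separated by replicate number and not by line. A second Cry2 probe was well above background on the 2 arrays labelled replicate 2 and was not kept.

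The Per genes code for the partners of the Cry proteins in the repressor complex. Per1, the member that hormone-bound GR is known to induce, had table values of 0.064 and 0.077 in EV-50 and −0.14 and −0.064 in shGR-19, a difference of −0.17 ± 0.054 (SE; limma adjusted p = 0.0864). Its scanner values were 0.053 and 1.22 for EV-50 and 0.093 and 1.23 for shGR-19. The arrays with the same replicate number thus differed by 0.040 and 0.0052, while the EV-50 duplicates lay 1.17 apart. Per2 had a table difference of 0.26 ± 0.046 (SE; limma adjusted p = 0.0263) for its brighter probe and 0.011 (adjusted p = 0.930) for a second probe nearer the start of the transcript, whose columns overlapped between the lines. The brighter probe read −3.14 and −1.82 for EV-50 and −3.11 and −1.40 for shGR-19 on the scanner arrays, again split by replicate number. Per3 had table values of 0.21 and 0.48 in EV-50 and −0.21 and −0.40 in shGR-19. That was a difference of −0.65 ± 0.13 (SE; limma adjusted p = 0.0365), with the widest spread between columns of a line among the 9 genes. On the scanner arrays Per3 read −3.99 and −3.01 for EV-50 and −3.92 and −3.24 for shGR-19, so that its lines overlapped.

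**Figure D3:**
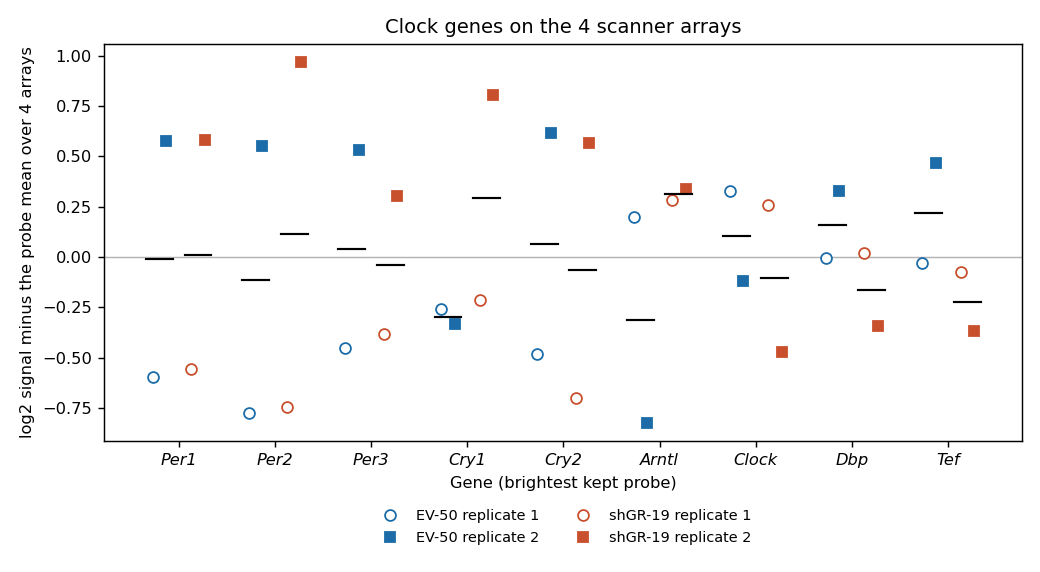
Scanner values of the same 9 probes on the 4 arrays, as log2 signal relative to the array's 75th percentile minus the probe's mean over the arrays, with bars at the mean of each line. For Per1, Per2, Per3, Cry2 and Clock the arrays group by replicate number, while for Arntl, Cry1 and Tef the lines do not overlap. On these arrays the lines do not overlap for 17.9% of all kept probes.

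The PAR bZIP genes Dbp and Tef, transcription factors that act on D-boxes, were lower in shGR-19 in the table on all 4 of their kept probes, of which 1 was called. Tef was called on its brightest probe (A_52_P485573, mm9 chr15:81656928-81656987), with values of 0.38 and 0.37 in EV-50 and −0.47 and −0.37 in shGR-19. The columns were far apart for the spread within a line, with a difference of −0.79 ± 0.058 (SE; limma adjusted p = 0.00606, range over the alternatives 3.58e-05 to 0.0471). The other kept Tef probes gave −0.44 (adjusted p = 0.0179) and −0.33 (adjusted p = 0.0301), so that the mean over the 3 was −0.52. On the scanner arrays the brightest Tef probe read 0.79 and 1.29 for EV-50 and 0.75 and 0.45 for shGR-19, a difference of −0.44 ± 0.28 (SE; limma adjusted p = 1.00). The lines did not overlap, but the arrays labelled replicate 1 differed by −0.047 where those labelled replicate 2 differed by −0.84. The dimmest kept Tef probe was on average higher in shGR-19 there, at 0.17, with 0.62 for replicate 1 and −0.28 for replicate 2.

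Dbp (A_51_P180492, mm9 chr7:52965265-52965324), a direct target of the activators with a strong daily rhythm in many tissues, had table values of 0.35 and 0.24 in EV-50 and −0.24 and −0.30 in shGR-19. Its difference of −0.57 ± 0.065 (SE; limma adjusted p = 0.0118) missed the call, and it passed with the stricter filter on signal (adjusted p = 0.00511). The scanner arrays gave Dbp 2.23 and 2.57 for EV-50 and 2.26 and 1.90 for shGR-19. The lines overlapped there. The arrays labelled replicate 1 differed by 0.025 and those labelled replicate 2 by −0.67.

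Of the 14 probes, 13 had the sign of the table's difference when the scanner arrays of replicate 2 were compared, and 8 when those of replicate 1 were. Both sources are of the same samples, so these counts are not independent evidence. Over the 15163 bright probes, scanner and table differences had a correlation of 0.940 for replicate 2 and 0.124 for replicate 1. The share of all kept probes with the same sign was not counted. The exception for replicate 2 was Per1. The largest difference between the arrays labelled replicate 1 among the 9 brightest probes was 0.22 in size, for Cry2.

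The rest of the pathway was described from a list of 25 other clock genes, all on the array, with 40 of 50 probes kept for 24 genes. In the table limma called 8 of the 40 probes (20%, against 11.6% of all kept probes). In shGR-19, 1 of these was higher and 7 lower. At an adjusted p below 0.05, 17 passed (42.5%, against 36.5% of all kept probes), 8 of them higher and 9 lower. Of all kept probes, 18.3% were higher and 18.2% lower at that p. In the scanner files limma called 0, against 0.0% of all kept probes, with 0 at an unadjusted p below 0.05, against 0.855%. In the second loop, the Rev-erb genes, repressors of Arntl, were lower in the table. Nr1d2 differed by −0.66 ± 0.047 (SE; limma adjusted p = 0.00577). Nr1d1 differed by −0.65 ± 0.054 (SE; limma adjusted p = 0.00707) on its brightest probe, while its other probes gave −0.36 and −0.11 and were not called. Rora, an activator of Arntl, was higher by 0.86 on the called probe (limma adjusted p = 0.00762), with 1.05 on a brighter probe that just missed the call (adjusted p = 0.0106). Rorb was well above background on no array. On the scanner arrays the brightest Nr1d1 probe read 0.034 and 0.33 for EV-50 and 0.094 and −0.52 for shGR-19, so that its lines overlapped. The scanner values of Nr1d2 were 0.028 and 0.69 for EV-50 and 0.070 and −0.16 for shGR-19, which overlapped. Those of the brighter Rora probe were −2.48 and −3.29 for EV-50 and −2.49 and −2.15 for shGR-19, which overlapped too.

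In the PAR bZIP family, Hlf showed the widest difference of any listed clock gene. Its table values were 1.42 and 1.26 in EV-50 and −1.36 and −1.26 in shGR-19, a decrease of 6.28-fold (log2 difference −2.65 ± 0.087 (SE), limma adjusted p = 0.00257). Hlf is also on the list of changed genes that the study drew up from these samples, so its direction is not independent evidence. On the scanner arrays Hlf read 0.58 and −2.43 for EV-50 and 0.69 and −4.54 for shGR-19. The arrays labelled replicate 1 thus lay high in both lines and those labelled replicate 2 low in both, with a difference of −2.12 between the latter. Nfil3, the repressor that competes for D-boxes, was higher in the table by 0.83 on its brighter probe (limma adjusted p = 0.0122) and 0.73 on the other, neither called. The brighter Nfil3 probe read 2.45 and 2.73 for EV-50 and 2.71 and 3.51 for shGR-19 on the scanner arrays, which overlapped.

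Outside the second loop and the PAR bZIP family, the called genes were Bhlhe40, Bhlhe41 and Timeless. The Bhlhe genes, E-box repressors that compete with the activators, stood at −0.78 (limma adjusted p = 0.00477) and −0.81 (limma adjusted p = 0.00678) in the table. On the scanner arrays Bhlhe40 read 2.65 and 4.32 for EV-50 and 2.58 and 3.58 for shGR-19. Bhlhe41 read −3.61 and −1.46 for EV-50 and −3.43 and −2.20 for shGR-19, and the lines overlapped for both genes. Timeless, best known for replication fork protection in mammals, was lower on both called probes, at −0.61 and −0.83. Its brighter probe read 1.42 and 1.77 for EV-50 and 1.41 and 1.13 for shGR-19 on the scanner arrays, which did not overlap. None of the kinase genes Csnk1d, Csnk1e and Gsk3b was called. Of the 10 called clock probes, members included, 10 had the table's sign between the scanner arrays labelled replicate 2 and 5 between those labelled replicate 1. Here too both sources are of the same samples, and the share over all kept probes was not counted.

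**Figure D4:**
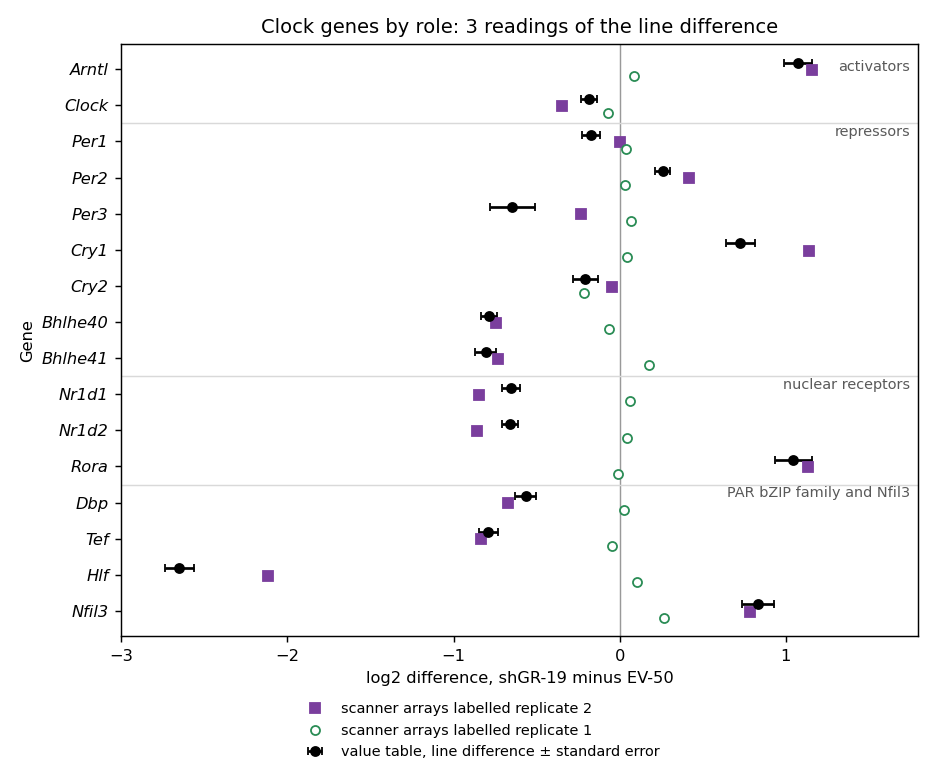
Log2 difference, shGR-19 minus EV-50, for 16 clock genes grouped by role, as the value table's difference with its standard error (filled circles), the scanner difference between the arrays labelled replicate 2 (squares) and that between the arrays labelled replicate 1 (open circles). For Arntl the readings are 1.08, 1.16 and 0.085, for Tef −0.79, −0.84 and −0.047, and for Hlf −2.65, −2.12 and 0.11.

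The probes with 4 table values nearest to those of Arntl, the member with the largest difference, were those for Ntn1 (root mean square distance 0.0066 on the log2 scale), for the transcript that the array names only NAP108679-1 (0.0145) and for Vangl2 (0.0317). On the scanner arrays labelled replicate 2 these were higher in shGR-19 by 1.49, 0.41 and 0.52, and Arntl by 1.16. Between those labelled replicate 1 the differences were −0.086 for Ntn1, −0.21 for NAP108679-1, 0.54 for Vangl2 and 0.085 for Arntl. The likeness rests on 4 columns of which 2 mirror each other, since centring on the median of 4 makes the middle columns equal in size and opposite in sign.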

How the data were processed

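RNA of EV-50 and shGR-19 was measured on 2 one-colour Agilent arrays per line, on 1 slide and in 1 scan. The authors deposited the scanner output of Agilent Feature Extraction 10.5.1.1 (per the submitters' processing notes), with a background-subtracted intensity per spot that is not scaled between arrays, and GeneSpring output on the log2 scale. In that deposited log2 table each row has a median of 0 over the columns. Column medians were 0.0763 and 0.0381 for EV-50 and −0.0560 and −0.0634 for shGR-19. Scale and direction were checked against the scanner values, with which the replicate 2 difference had a correlation of 0.940 across probes and the replicate 1 difference one of 0.124; the earlier scaling steps are not given in the sources used here.

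Control spots and from 74 to 139 outlier spots per array were left out, spots of 1 probe were averaged, and no spot was saturated. Spots well above background made up from 53.7% to 63.1% per array. Having 2 arrays per line limits the precision. The log2 signal minus the array's 75th percentile, and the table, were each fitted with limma 3.58.1 (lmFit, eBayes; R 4.3.3) without covariates, with Benjamini-Hochberg adjustment over the kept probes, called at an adjusted p below 0.01. Fold changes are powers of the log2 difference. An exact permutation of 2 against 2 cannot give a p below 0.333, and none was used. The brightest kept probe stands for a gene. The steps were tested on simulated data.

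The members and lists were chosen with earlier results of these data known. Named were all members, listed clock genes called in the table, the listed genes of the second loop and the PAR bZIP family, Nr3c1, and the 3 probes nearest to the member with the largest difference. Some clock genes are not reported here and are in none of the counts over the list. Ciart and Cipc were found under older symbols through RefSeq names. Probe positions are those of mm9 in the array files, and promoters those of the RefSeq table for GRCm38.p6. Alternatives were normexp (offset 50), quantile normalization, the percentile over detected probes, other filters, the other source, a robust prior with an intensity trend (statmod 1.5.0), arrays left out, a block for the replicate number, a plain equal-variance test, other thresholds and the mean of a gene's probes. The study's own list of changed genes was used only for the remark that Hlf is on it.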

Additional observations from a re-analysis of the deposited data

How the results depend on the processing

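In the value table, 2 member probes and 8 probes of other clock genes were called. Of all kept probes, 11.6% were. With all probes of the table kept these counts were 0 and 0 (0.104% of all probes tested), and with a plain equal-variance test and adjustment 0 and 0 (0.0941%). With any 1 column left out, the table difference ran from 0.99 to 1.16 for Arntl and from −0.84 to −0.74 for Tef. The lone column of a line was then assumed to vary like the other line. At an unadjusted p below 0.05, from 8 to 9 member probes still passed with 1 column left out, 14 of 19 with all probes kept and 9 by the plain test, beside shares over all probes tested of 37.1% to 40.2%, 41.2% and 40.1%. When each of the 4 arrays had to read the probe well above background, 5 and 13 were called (23% of all probes tested), with an intensity trend and a robust prior 5 and 17 (32.9%), at an adjusted p below 0.05 8 and 17 (36.5%), and with a 2-fold limit 1 and 1 (4.26%). Of the other clock probes 5 were then higher and 8 lower, 9 and 8, 8 and 9, and 0 and 1, in that order, against 1 and 7. The plain test at an unadjusted p below 0.01 gave 3 and 10 (18.7%), of the others 2 higher and 8 lower. The members' differences in the table kept their sign under every alternative run.

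The arrays share replicate numbers, which the sources do not tie to a common culture or day. With the replicate number as a block, limma called 0 member probes and 0 of the others in the table, where 0% of all kept probes were called. At an unadjusted p below 0.05, 12 and 22 passed there (49.4% of all kept probes). In the scanner files 0 and 0 were called. With only 2 pairs the numbers were not taken to pair the samples: deviations of same-numbered arrays had a correlation of 0.574 in the scanner files and 0.0553 in the table. The cause of the lost calls was not tested.

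In the scanner files 0 member probes and 0 others were called under every alternative except the change to the value table, which gives 2 and 8, and turns Per1 to −0.17. With 1 array, or 1 array of each line, left out, the scanner differences ran from −0.56 to 0.61 for Per1, from −0.63 to 1.08 for Per2, from −0.57 to 0.41 for Per3, from −0.76 to 0.50 for Cry2, from −0.57 to 0.15 for Clock and from −0.67 to 0.025 for Dbp, each changing sign, while Arntl (0.085 to 1.16), Cry1 (0.043 to 1.14) and Tef (−0.84 to −0.047) did not. Among the others they changed sign for Bhlhe40 (−1.24 to 0.43), Bhlhe41 (−1.35 to 0.80), Nr1d1 (−0.85 to 0.061), Nr1d2 (−0.86 to 0.042), Rora (−0.012 to 1.14) and Hlf (−3.62 to 1.61). They did not for Nfil3 (0.13 to 0.92) and Timeless (−0.64 to −0.0074). Between the arrays labelled replicate 1 alone the differences with a turned sign were 0.067 for Per3, 0.025 for Dbp, 0.18 for Bhlhe41, 0.061 for Nr1d1, 0.042 for Nr1d2, −0.012 for Rora and 0.11 for Hlf. The cause was not tested. Signal limits Npas2, Rorb and 4 further member probes, which were not well above background on both arrays of either line.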
